A study of Mus musculus with 35 samples.

Results

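A list of 39 genes that mark blood stem cells or serve their self-renewal was followed through 35 RNA-seq libraries of mouse LT-HSCs, the long-term blood stem cells. The genes were taken by symbol from the 19138 genes counted in each library, and all 39 were found. All 39 also had enough counts to be tested, among 14945 tested genes. The cells came from mice of 6 genotypes, and all of them carried SclCre, a Cre recombinase driven by regulatory sequence of the stem cell gene Scl. The control group carried SclCre with intact Ezh2 (4 libraries). SclCre with Ezh2 +/- (7 libraries) and SclCre with Ezh2 -/- (4 libraries) lacked 1 or both Ezh2 alleles. The same 3 Ezh2 states were also combined with JAK2V617F: intact Ezh2 (6 libraries), Ezh2 +/- (8 libraries) and Ezh2 -/- (6 libraries). Each library was made from 1000 sorted cells. The labels name neither the age of the mice nor the animal behind each library, and each p-value therefore reflects variation from library to library, which may be technical.

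Long-term stem cells divide rarely and renew themselves for life, and a small network of transcription factors holds this state. Among the listed genes, Mecom, Hlf, Prdm16, Mllt3, Erg and Lmo2 belong to that network. Angpt1, Tek and Tie1 form a ligand and receptor system linked to stem cell rest, and Abcg2 and Abcb1a pump dyes and drugs out of stem cells. JAK2V617F is the activating kinase mutation of myeloproliferative neoplasms, which arise in stem cells. Ezh2 is the methyltransferase of the silencing complex PRC2. The genotypes ask which stem cell genes are lower with JAK2V617F, which are not, and which return when Ezh2 is also missing.

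Total counts ran from 13554182 to 48557175 per library (median 24914541). Batch 1 held 14 libraries and batch 2 held 21. All 4 controls were female, while the JAK2V617F group held 2 females in batch 1 and 4 males in batch 2, so the fit carried terms for batch and sex. A separately counted part of Ezh2 held 6.02 to 8.72% of the Ezh2 counts in controls and 6.34 to 9.27% in JAK2V617F libraries. It held 0 to 0.478% in Ezh2 -/- libraries and 0% in all JAK2V617F Ezh2 -/- libraries. Shares of 0 to 9.497% in Ezh2 +/- and 4.08 to 8.495% in JAK2V617F Ezh2 +/- libraries overlapped the controls, so this part does not check the labels of those groups. Values of 2 libraries labelled Ezh2 +/- in batch 1 went against a label. The library labelled replicate 3 had 0 of 831 Ezh2 counts in that part, which allows a share of up to 0.361%. The library labelled replicate 1 and male held 391 CPM of Xist (CPM, counts scaled to a common normalised library total). The highest value among other males was 14.4 CPM, and females held 590 to 1351 CPM, so this value lay between the sexes. Without both libraries, 11 listed genes were lower in JAK2V617F than in control cells, as with them. Kit, a receptor of stem and progenitor cells, stood at 862 to 1113 CPM in controls and 665 to 1461 CPM in JAK2V617F libraries, and Slamf1, a stem cell surface marker, was present in both groups (39.8 to 82.2 and 55.2 to 84.7 CPM). Cd48, which LT-HSCs lack on their surface, was at most 6.84 and 19.8 CPM. Of 7 surface marker genes used to define LT-HSCs, these 3 included, 2 differed with JAK2V617F by edgeR. Procr was lower (log2 change -1.01 ± 0.21) and Cd34 higher (0.83 ± 0.21).

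The listed genes covered a wide range of levels in control cells. Per kilobase of gene length, Adgrg1, an adhesion G protein-coupled receptor, had the highest level at 1264 ± 81.3 FPKM (SD, n = 4). Lmo2, the adaptor that joins Tal1 to GATA factors, followed at 562 ± 75.6 FPKM, below every Adgrg1 value. Next were Pdzk1ip1, a small membrane protein gene, at 423 ± 67.0 FPKM and Txnip, an inhibitor of thioredoxin, at 390 ± 116 FPKM, whose ranges overlapped. The lowest were Foxo3, a forkhead factor of stem cell rest, at 1.28 ± 0.43 FPKM, Tcf15, a basic helix-loop-helix factor, at 1.61 ± 1.30 FPKM and Abcb1a at 1.87 ± 0.81 FPKM. Neighbours in this order overlapped, except Adgrg1 with Lmo2, Lmo2 with Pdzk1ip1, Gimap6 with Angpt1, and Vldlr with Neo1, whose ranges were apart.

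**Figure D1:**
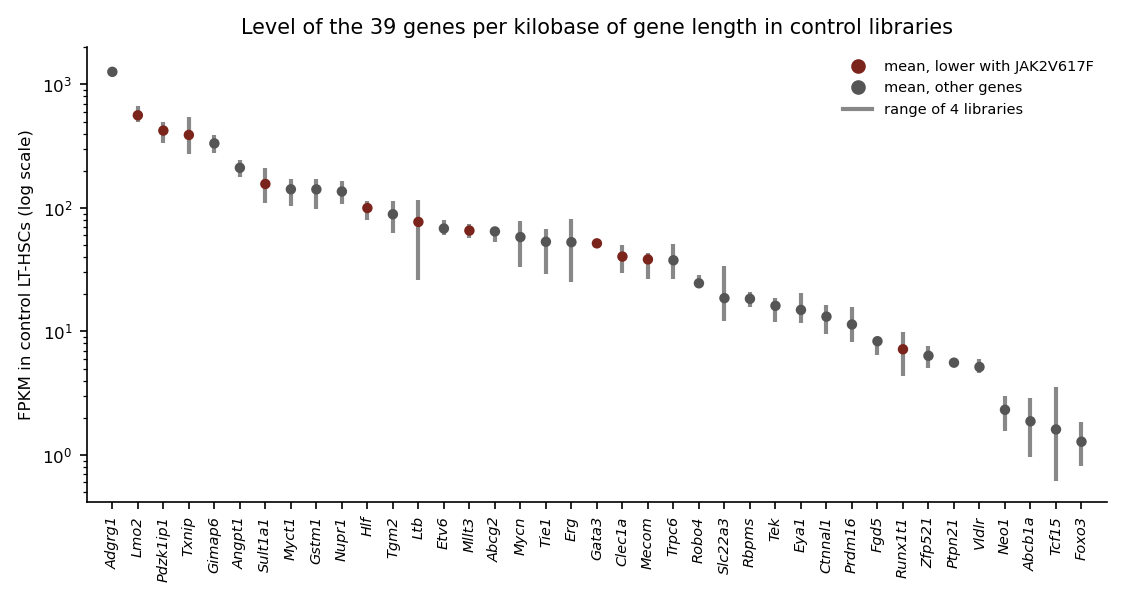
Levels of the 39 genes per kilobase of gene length (FPKM, log axis) in the 4 control libraries, with points for means and bars for the range of the libraries. Genes lower with JAK2V617F are dark red and run from Lmo2 at 562 FPKM (rank 2) to Runx1t1 at 7.17 FPKM (rank 32). None of the genes below Runx1t1 in this order was called lower.

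JAK2V617F stem cells held less RNA of 11 of the 39 genes than control stem cells, and none of the 39 was higher. Transcription and chromatin genes gave 6 of the 11: Runx1t1, Mllt3, Hlf, Gata3, Mecom and Lmo2. The others were the ligand gene Ltb, the lectin receptor gene Clec1a, Pdzk1ip1, and the metabolic genes Sult1a1 and Txnip. By role, these were 6 of 16 transcription and chromatin genes, 2 of 9 ligands and receptors, 1 of 6 signalling and cytoskeleton genes, 2 of 4 detoxification and redox genes and 0 of 4 channels and transporters. Across all genes tested, 1.83% were lower and 2.4% higher (edgeR quasi-likelihood test, adjusted p under 0.05), against 28.2% of the listed genes lower. The median log2 change of the 39 genes was -0.45, beside -0.03 for all genes tested, and 31 of the 39 values were negative. In 7 of the 39 genes every JAK2V617F library lay below every control, against 2.77% of all genes. In bulk libraries, fewer cells of one kind and less RNA per cell cannot be told apart.

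**Figure D2:**
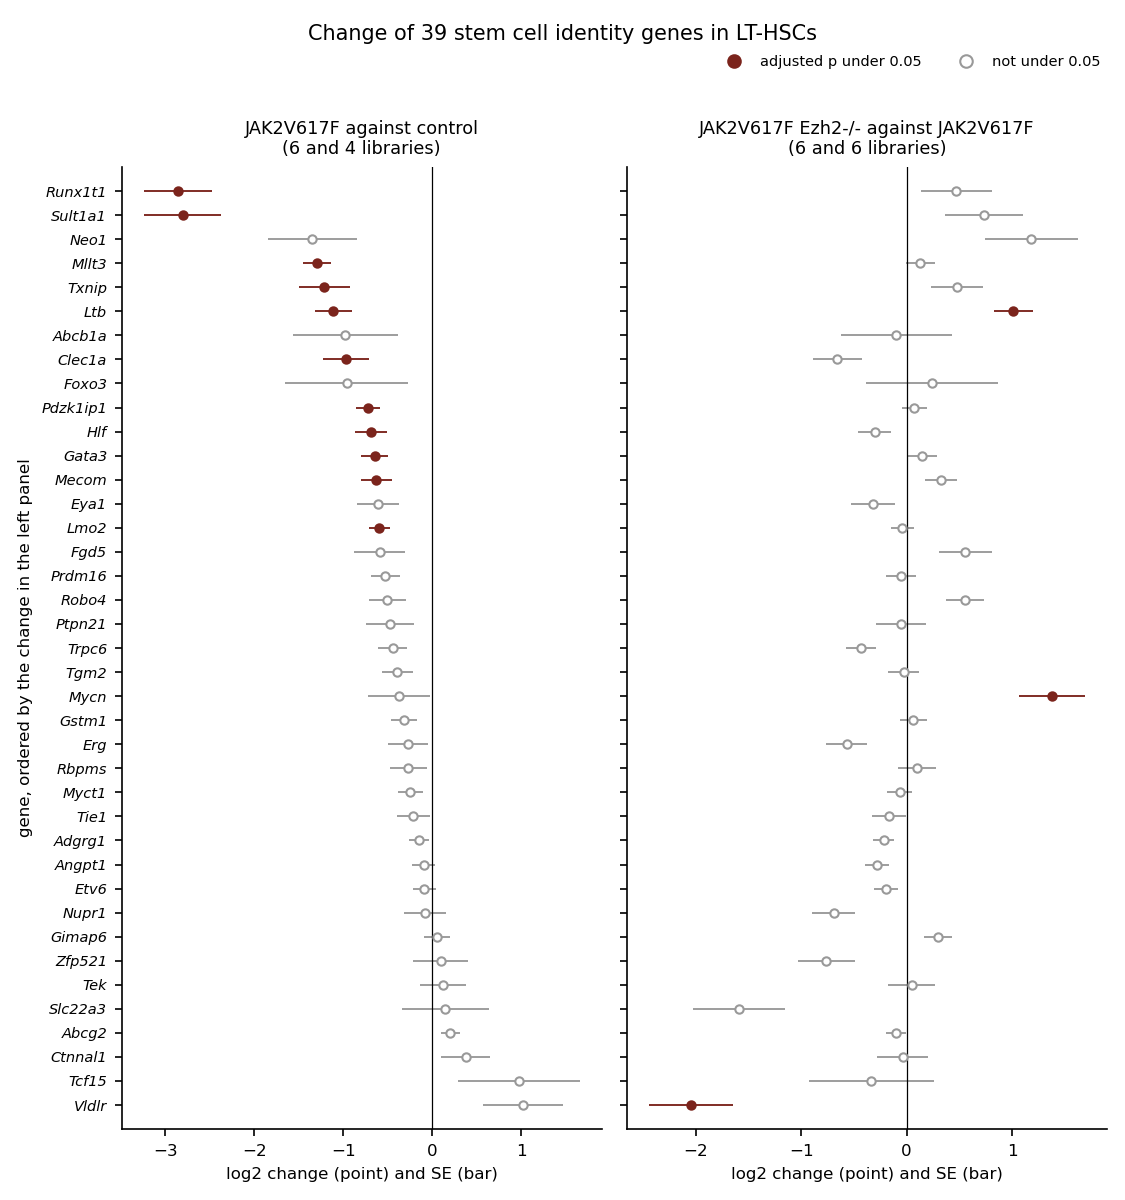
Log2 changes (points) with their SE (bars) of the 39 genes in JAK2V617F against control libraries (left, 6 and 4 libraries) and in JAK2V617F Ezh2 -/- against JAK2V617F libraries (right, 6 and 6). Filled points passed an adjusted p of 0.05: 11 genes at left, all lower, and Ltb, Mycn and Vldlr at right.

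Runx1t1 (Entrez 12395), the co-repressor also known as ETO, had the largest fall. Its levels were 68.2, 29.9, 55.0 and 44.5 CPM in the 4 controls, and 1.63 to 11.2 CPM in the 6 JAK2V617F libraries (median 8.46). All 6 lay below every control (log2 change -2.86 ± 0.38 SE, edgeR adjusted p = 2.3e-05). Mllt3 (Entrez 70122), a subunit of the super elongation complex and a regulator of stem cell self-renewal, was at 448, 355, 461 and 365 CPM in controls and at 120 to 216 CPM (median 167) with JAK2V617F. No library of one group reached the other (log2 change -1.30 ± 0.16, edgeR adjusted p = 5.91e-06). Lmo2 (Entrez 16909) was at 1023, 950, 1277 and 1022 CPM in controls and at 594 to 771 CPM (median 729) with JAK2V617F, again without overlap (log2 change -0.59 ± 0.12, edgeR adjusted p = 0.00323).

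Hlf (Entrez 217082), a PAR bZIP transcription factor found mainly in stem cells, was at 646, 608, 558 and 449 CPM in controls and at 253 to 382 CPM (median 341) in JAK2V617F cells. The groups did not overlap (log2 change -0.69 ± 0.18, edgeR adjusted p = 0.0216). Gata3 (Entrez 14462), a zinc finger factor better known from T cells, was steady in controls at 164, 160, 177 and 164 CPM and lower in all 6 JAK2V617F libraries, at 91.9 to 122 CPM with a median of 109 (log2 change -0.65 ± 0.15, edgeR adjusted p = 0.0114). Mecom (Entrez 14013), which encodes the zinc finger factor EVI1, overlapped: 3 of 6 JAK2V617F libraries lay below every control. Its levels were 238, 147, 237 and 221 CPM in controls and 95.1 to 194 CPM (median 137) with JAK2V617F (log2 change -0.63 ± 0.17, edgeR adjusted p = 0.0293).

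The promoters of Mllt3 and Hlf are shown as examples of transcription regulators that were lower with JAK2V617F in every library. They come from RefSeq on the build GRCm38.p6, which differs from the build of the counts, and run from 250 bases before to 50 bases after the start. Capitals mark CG dinucleotides, 29 in the Mllt3 window (chr4:88033358-88033657, minus strand, the upstream of its 2 starts) and 30 in the Hlf window (chr11:90390868-90391167, minus strand). The median over all 32851 promoters was 7.0, and it was 9.5 over 40 promoters of the 30 listed genes that matched. The 2 windows shown are the richest among the lost genes, whose 10 matched windows ranged widely: Mllt3 had 4 CG at its other start, Pdzk1ip1 had 3 and Sult1a1 had 0.
Mllt3: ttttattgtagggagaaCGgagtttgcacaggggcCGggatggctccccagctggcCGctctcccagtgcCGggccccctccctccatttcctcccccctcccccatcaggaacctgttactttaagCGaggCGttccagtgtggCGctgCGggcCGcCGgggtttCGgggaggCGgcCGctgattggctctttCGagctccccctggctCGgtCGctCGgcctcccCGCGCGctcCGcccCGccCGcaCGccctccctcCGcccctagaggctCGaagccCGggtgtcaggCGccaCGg
Hlf: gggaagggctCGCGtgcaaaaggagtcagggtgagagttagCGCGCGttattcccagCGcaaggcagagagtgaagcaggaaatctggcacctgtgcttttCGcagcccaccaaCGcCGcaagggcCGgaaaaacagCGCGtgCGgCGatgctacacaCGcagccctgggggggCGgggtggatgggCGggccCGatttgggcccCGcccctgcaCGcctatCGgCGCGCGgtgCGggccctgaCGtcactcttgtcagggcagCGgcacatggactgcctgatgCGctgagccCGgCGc

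Among ligands and receptors, Ltb (Entrez 16994) and Clec1a fell. Ltb encodes lymphotoxin beta, a membrane-bound ligand of the TNF family. Its level differed by batch. Batch 1 had 59.2 and 28.7 CPM in controls and 13.9 and 25.4 CPM in JAK2V617F libraries. Batch 2 had 123 and 126 CPM in controls and 47.8, 57.8, 61.1 and 63.1 CPM in JAK2V617F libraries. Within each batch the JAK2V617F libraries lay below the controls of that batch, although over both batches only 2 of 6 lay below every control. The log2 change was -1.11 ± 0.21 over both batches (edgeR adjusted p = 0.00145), -1.16 in batch 1 alone and -1.17 in batch 2 alone. Clec1a (Entrez 243653), a C-type lectin receptor gene, was at 164, 97.3, 118 and 149 CPM in controls and at 37.2 to 93.5 CPM (median 66.4) with JAK2V617F, without overlap (log2 change -0.97 ± 0.26, edgeR adjusted p = 0.0245).

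Of the metabolic genes, Sult1a1 (Entrez 20887), a phenol sulfotransferase gene, was at 246, 151, 169 and 290 CPM in controls and at 22.1 to 57.8 CPM (median 29.97) with JAK2V617F. All 6 libraries lay below every control (log2 change -2.81 ± 0.43, edgeR adjusted p = 0.000245). Txnip (Entrez 56338) was at 965, 1528, 1111 and 763 CPM in controls and at 297 to 801 CPM (median 628) with JAK2V617F, and 4 of 6 libraries lay below every control (log2 change -1.21 ± 0.28, edgeR adjusted p = 0.0111). The fall of Txnip was mainly seen in batch 1, at -1.89, and was -0.24 in batch 2. Pdzk1ip1 (Entrez 67182) was at 466.2, 382, 564 and 497 CPM in controls and at 242 to 409 CPM (median 305) with JAK2V617F, with 5 of 6 libraries below every control (log2 change -0.73 ± 0.14, edgeR adjusted p = 0.00145).

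**Figure D3:**
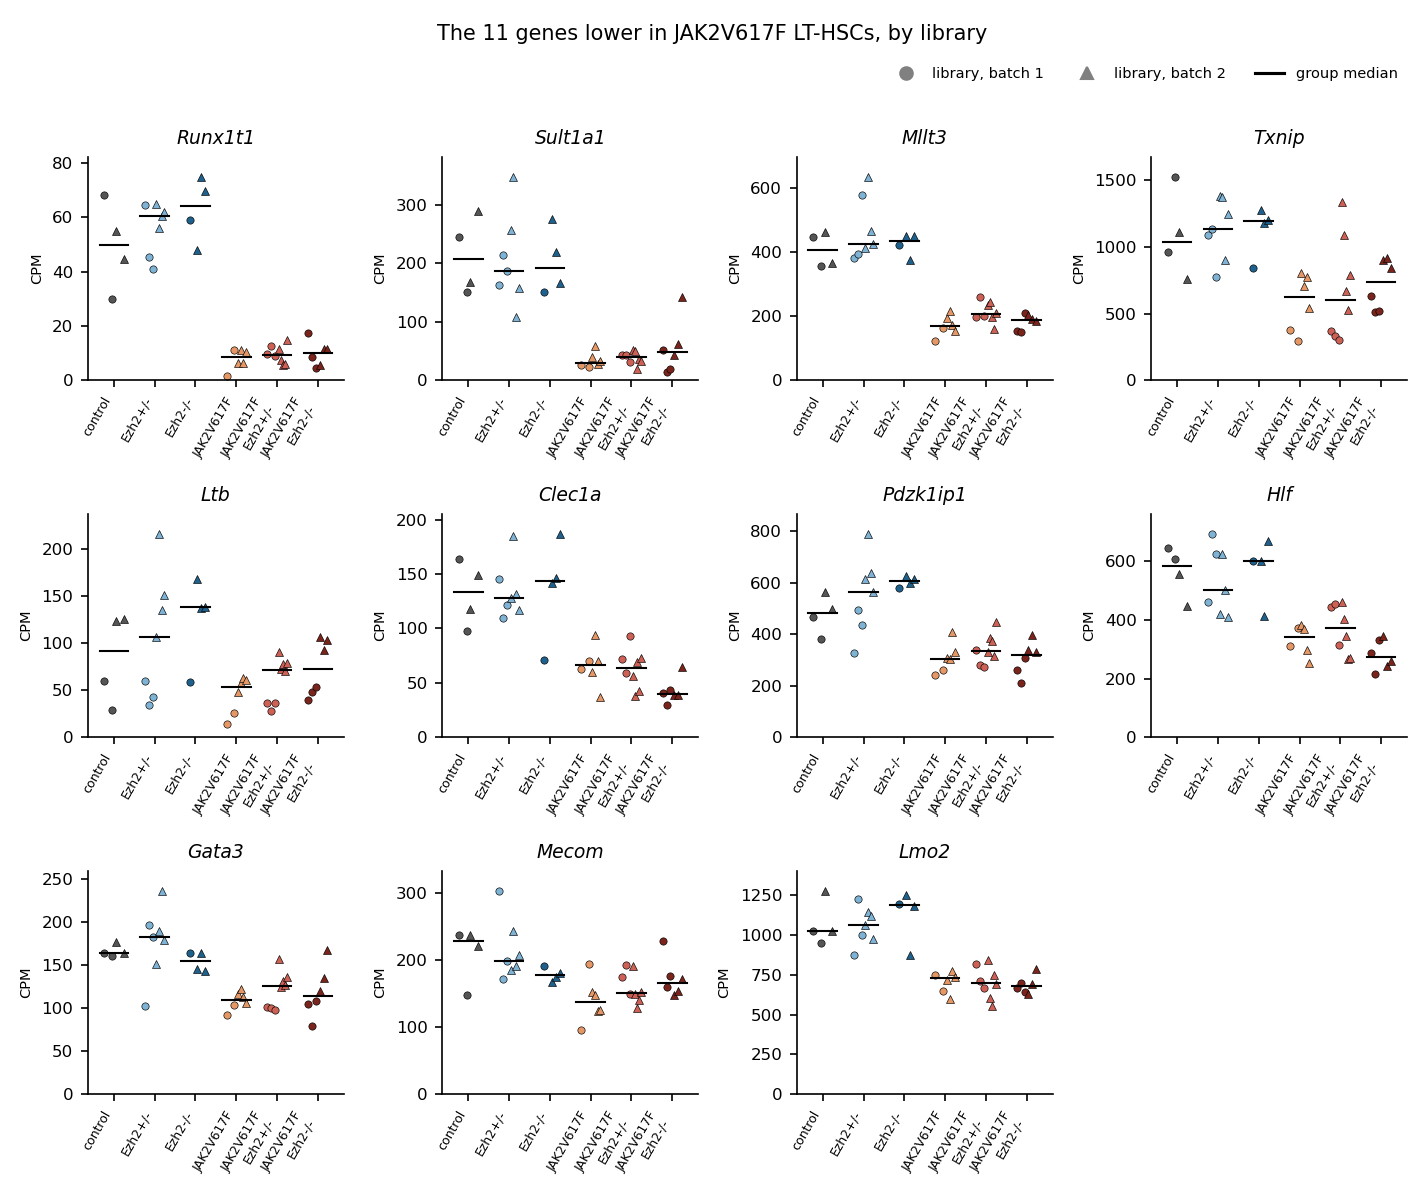
Levels (CPM, linear axis from 0) of the 11 genes lower in JAK2V617F than in control cells, with 1 point per library (circles batch 1, triangles batch 2) and bars for group medians. Runx1t1 and Sult1a1 have their lowest medians in the 3 groups with JAK2V617F. For Sult1a1, JAK2V617F Ezh2 -/- batch 2 replicate 3 (142.5 CPM) lies above Ezh2 +/- batch 2 replicate 3 (107.6 CPM). Ltb in JAK2V617F Ezh2 -/- libraries of batch 2 reaches 92.4 to 107 CPM.

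All 11 genes had negative values in each batch alone (-3.07 to -0.41 in batch 1, -2.82 to -0.24 in batch 2) and in females alone (-2.97 to -0.57), while 3, 3 and 5 of the 11 passed there. These are not separate checks, as females alone used the same 2 JAK2V617F libraries as batch 1 alone. In batch 2 all JAK2V617F libraries were male and all controls female, so its values lean on the sex term. Leaving out 1 library at a time ended the call of Mecom without control batch 1 replicate 1, batch 2 replicate 2 or 4, or JAK2V617F batch 1 replicate 1 or batch 2 replicate 4 (highest edgeR adjusted p = 0.134). It ended that of Hlf without control batch 1 replicate 1 or 2, batch 2 replicate 2, or JAK2V617F batch 1 replicate 1 (0.0923). For Clec1a the call ended without control batch 1 replicate 1, batch 2 replicate 4, or JAK2V617F batch 1 replicate 1 (highest edgeR adjusted p = 0.123), Gata3 without control batch 1 replicate 1 (0.0536) and Txnip without control batch 1 replicate 2 (0.0731, log2 value -0.86). A fit of the control and JAK2V617F libraries only called 8 listed genes, without Clec1a, Lmo2, Ltb and Mecom and with Prdm16.

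The other 28 genes did not pass between JAK2V617F and control cells, which does not show that they were equal. Closest to 0 were Gimap6, a GTPase gene of immune cells (log2 value 0.05 ± 0.15), Nupr1, a stress-induced nuclear protein gene (-0.08 ± 0.23), and Etv6, an ETS-family repressor (-0.09 ± 0.13). Gimap6 was at 540, 448, 630 and 528 CPM in controls and at 395 to 789 CPM (median 626) with JAK2V617F. Etv6 was at 445, 344, 336 and 381 CPM and at 275 to 414 CPM (median 320). Nupr1 was at 103, 86.5, 83.2 and 67.3 CPM and at 45.7 to 112 CPM (median 85.2). In each of the 3 genes the groups overlapped.

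The Angpt1 system was among the genes that did not pass. Angpt1, the ligand, had a log2 value of -0.10 ± 0.13 (edgeR adjusted p = 0.775), its receptor gene Tek 0.12 ± 0.26 (0.88) and the related receptor gene Tie1 -0.21 ± 0.18 (0.599). The efflux pump gene Abcg2 stood at 0.20 ± 0.11 (0.344) and Adgrg1 at -0.15 ± 0.11 (0.546). The stem cell marker gene Fgd5, a Cdc42 exchange factor, had -0.59 ± 0.28 with 5 of 6 libraries below every control (0.27). Prdm16, a zinc finger methyltransferase needed to maintain stem cells, had -0.53 ± 0.16 with 4 of 6 below (0.0575). It passed with DESeq2 and in the fit without a term for sex. It also passed with the replicate number as a block and in the fit of the control and JAK2V617F libraries only.

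Several other members had low levels or wide spread, and their values are correspondingly imprecise. Neo1, the netrin receptor neogenin, had the third most negative log2 value (-1.35 ± 0.50, edgeR adjusted p = 0.123), at 11.5 to 22.4 CPM in controls and 1.73 to 13.9 CPM with JAK2V617F, and limma-voom called it. Foxo3 was at most 5.35 CPM in these 2 groups (log2 value -0.96 ± 0.69) and Abcb1a at most 14.4 CPM (-0.98 ± 0.59). Tcf15, at 0.573 to 3.51 CPM over both groups, had 0.97 ± 0.68, a value with an SE close to its size.

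The remaining genes without a call took values of both signs. Vldlr had 1.01 ± 0.45 (edgeR adjusted p = 0.221), Eya1 -0.61 ± 0.24 (0.146), Trpc6 -0.45 ± 0.16 (0.125), Erg -0.27 ± 0.22 (0.575) and Zfp521 0.10 ± 0.31 (0.928). Each overlapped the controls, and Trpc6 passed in the fit without a term for sex. Among surface genes, Robo4, a roundabout receptor, had -0.51 ± 0.21, with 5 of 6 libraries below every control and a call with the replicate number as a block, and Slc22a3, an organic cation transporter, had 0.15 ± 0.49. Among signalling and enzyme genes, Ptpn21, a tyrosine phosphatase, had -0.47 ± 0.27 with 5 of 6 below, Tgm2, a transglutaminase, -0.39 ± 0.17, Gstm1, a glutathione transferase, -0.31 ± 0.15 and Myct1 -0.25 ± 0.14. Rbpms, an RNA-binding protein gene, had -0.27 ± 0.20 and Ctnnal1, the stem cell marker alpha-catulin, 0.38 ± 0.28. None of these passed, at edgeR adjusted p from 0.125 (Trpc6) to 0.930 (Slc22a3).

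A second list of 54 stem cell genes outside the 39 gave 53 matches and 51 tested genes. Of these, 9 were lower and 3 higher with JAK2V617F, with a median log2 change of -0.21. Ndn, a growth suppressor gene, was at 92.2 to 148 CPM in controls and 32.3 to 64.9 CPM with JAK2V617F (log2 change -1.40 ± 0.14, edgeR adjusted p = 2.28e-07). Higher were Socs2, a feedback inhibitor of cytokine signalling (1.61 ± 0.25, edgeR adjusted p = 0.000168), and Cd34, a surface protein gene that is low in LT-HSCs (0.83 ± 0.21, edgeR adjusted p = 0.0192). Procr, the stem cell surface marker EPCR, was lower (-1.01 ± 0.21, edgeR adjusted p = 0.00328).

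Genes of dividing cells moved with the same comparison. Of 40 proliferation genes, 28 were higher and 0 lower with JAK2V617F, and their summed level was 1484 to 2124 CPM in controls and 3327 to 5659 CPM in JAK2V617F libraries. Their part in the falls of the stem cell genes was not tested. Of 12 myeloid progenitor and 11 granulocyte and monocyte markers tested, none passed (edgeR, 0 in each list), with summed levels of 1135 to 3001 and 1882 to 7607 CPM in controls and 1250 to 6220 and 1619 to 14330 CPM with JAK2V617F. Of 12 megakaryocyte markers 0 passed by edgeR, and of 13 erythroid markers 1 was lower (Hba-a1). Because Tek, Tie1, Robo4 and Erg are also endothelial genes, endothelial markers were read beside them. Cdh5 and Plvap, which define endothelium, were at most 0.667 and 0.221 CPM in controls and 0.161 and 0.8996 CPM with JAK2V617F. Others of the list were well detected, such as Esam (196 to 237 CPM in controls and 156 to 361 CPM with JAK2V617F), Egfl7 (114 to 160 and 75.9 to 196 CPM) and Pecam1 (56.0 to 86.2 and 50.7 to 102 CPM). Of 15 endothelial markers tested, 2 were lower, Cldn5 (6.52 to 19.3 CPM in controls, at most 0.0294 CPM with JAK2V617F) and Eng (-0.66 ± 0.14), and 0 higher, with summed levels of 899 to 1158 and 742 to 1192 CPM. The part of endothelial RNA in these results was not tested.

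In JAK2V617F stem cells that also lacked Ezh2, 3 of the 39 genes differed from JAK2V617F cells with Ezh2. Ltb and Mycn were higher and Vldlr was lower. Across all genes tested, 0.401% were higher and 0.0736% lower. The median log2 change of the 39 genes was -0.04, beside 0.01 for all genes tested. Of the 11 genes lost with JAK2V617F, Ltb alone was restored, meaning that it also passed as higher in this comparison. Both comparisons use the same JAK2V617F libraries.

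Ltb was higher without Ezh2 over both batches, and its libraries were apart within each. In batch 1, JAK2V617F Ezh2 -/- libraries held 39.9, 48.0 and 53.3 CPM, above the 13.9 and 25.4 CPM of JAK2V617F libraries. In batch 2 they held 107, 92.4 and 103 CPM, above the 47.8 to 63.1 CPM of JAK2V617F libraries and below the 123 and 126 CPM of controls. The log2 change was 1.01 ± 0.19 (edgeR adjusted p = 0.00359), 1.25 in batch 1 and 0.85 in batch 2, and 91.1% of the log2 fall was regained. Against controls the double mutant had a log2 value of -0.10 ± 0.19 (edgeR adjusted p = 0.849). JAK2V617F Ezh2 +/- libraries lay between, with 27.8 to 36.6 CPM (batch 1) and 70.7 to 90.4 CPM (batch 2), and did not pass against JAK2V617F (0.56 ± 0.17, edgeR adjusted p = 1, unadjusted p = 0.00227). The Ltb call held without any 1 of the 12 libraries (highest edgeR adjusted p = 0.0377), but not in a fit of these 2 groups only, in batch 1 alone (0.698), batch 2 alone (0.0945) or females alone (0.108).

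Lymphocytes also make Ltb, so lymphoid markers were read beside it. Their summed level was 129 to 165 CPM in controls, 53.7 to 76.5 CPM with JAK2V617F and 64.2 to 144 CPM in JAK2V617F Ezh2 -/- libraries. Of 9 lymphoid markers tested, 2 were lower with JAK2V617F, Ms4a1 and Klrb1c, and none passed between JAK2V617F Ezh2 -/- and JAK2V617F cells. Klrb1c, a receptor gene of natural killer cells, had log2 values of -3.00 ± 0.58 and 1.96 ± 0.52 in these comparisons (edgeR adjusted p = 0.00218 and 0.097). Ms4a1 was near the floor, at 0 to 5.20 CPM in controls and at most 0.0294 CPM with JAK2V617F, and the groups overlapped. The 9 tested markers had a median log2 value of -3.00 with JAK2V617F, 1 of them positive. Without Ezh2 in JAK2V617F cells the median was 1.72, with 7 positive. Of 14 lymphoid markers, 8 were under 1 CPM in every control, 9 in every JAK2V617F and 7 in every JAK2V617F Ezh2 -/- library. The B cell factor gene Pax5 and the recombinase gene Rag1 were among these in all 3 groups. The part of lymphoid RNA in the Ltb result was not tested.

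The Ltb and Mycn promoters are shown because these were the 2 listed genes with more RNA in JAK2V617F cells without Ezh2. Both are RefSeq windows on GRCm38.p6, with CG dinucleotides in capitals. The Ltb window (chr17:35194257-35194556, plus strand) held 7 and the Mycn window (chr12:12941787-12942086, minus strand) held 14.
Ltb: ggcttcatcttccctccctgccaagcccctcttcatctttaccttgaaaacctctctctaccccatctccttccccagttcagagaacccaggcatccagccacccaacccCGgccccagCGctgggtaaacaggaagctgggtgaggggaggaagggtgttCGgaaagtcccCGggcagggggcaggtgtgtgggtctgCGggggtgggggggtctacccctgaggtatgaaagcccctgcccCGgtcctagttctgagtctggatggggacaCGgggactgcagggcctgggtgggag
Mycn: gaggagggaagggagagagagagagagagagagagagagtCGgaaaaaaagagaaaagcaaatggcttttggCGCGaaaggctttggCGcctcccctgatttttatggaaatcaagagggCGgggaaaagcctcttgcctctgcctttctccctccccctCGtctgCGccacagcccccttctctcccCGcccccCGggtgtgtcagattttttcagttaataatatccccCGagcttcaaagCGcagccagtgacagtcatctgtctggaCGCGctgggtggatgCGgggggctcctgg

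The Ltb window holds the letters TTCAGAGAA from base 79, counted from its 5′ end, a match to the STAT motif TTCNNNGAA, which reads the same on both strands. That motif was in 8.3% of all promoters and in 4 of the 40 promoters of listed genes (Etv6, Gimap6, Ltb and Nupr1). Searched on both strands, the GATA motif AGATAA was in 3 of the 40 and 11.2% of all, the RUNX motif TGTGGT in 3 and 16.8%, the ETS motif CCGGAAG in 0 and 8.86%, and the E-box CANNTG in 28 and 72.3%. Matches of different motifs were counted apart and can share bases. A match describes letters in the window and no binding.

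Mycn (Entrez 18109), a MYC-family factor that drives growth, did not pass between JAK2V617F and control cells (log2 value -0.38 ± 0.35). It was at 161, 204, 152 and 85.9 CPM in controls, 133, 76.9, 137 and 144 CPM in Ezh2 -/- libraries, and 87.1 to 225 CPM (median 145) with JAK2V617F. In JAK2V617F Ezh2 -/- libraries it was at 187 to 460 CPM (median 339), and 5 of 6 lay above every JAK2V617F library (log2 change 1.38 ± 0.31, edgeR adjusted p = 0.03). Its value was 1.40 in batch 1 and 1.44 in batch 2. The call was lost without any 1 of 8 of the 12 libraries (highest edgeR adjusted p = 0.143), namely both JAK2V617F libraries of batch 1, JAK2V617F batch 2 replicates 1, 2 and 3, and JAK2V617F Ezh2 -/- batch 1 replicates 1 and 2 and batch 2 replicate 3. It was also lost with no low-count filter. JAK2V617F Ezh2 +/- libraries held 68.3 to 363 CPM of Mycn (median 184) and overlapped both groups, without a call against JAK2V617F. In batch 2 they held 331, 305, 126, 242 and 363 CPM, so high Mycn was not limited to libraries without Ezh2.

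Vldlr (Entrez 22359), a receptor gene for apolipoprotein E and reelin, was at 43.0, 49.8, 39.9 and 38.5 CPM in controls and 35.8 to 93.5 CPM (median 44.1) with JAK2V617F. In JAK2V617F Ezh2 -/- libraries it was at 5.55 to 45.4 CPM (median 15.9), and 5 of 6 lay below every JAK2V617F library (log2 change -2.04 ± 0.40, edgeR adjusted p = 0.00653). The value was -0.86 in batch 1 and -2.87 in batch 2, where all 4 JAK2V617F libraries were male and 2 of 3 JAK2V617F Ezh2 -/- libraries female. Without a term for sex it was -1.52 and did not pass (edgeR adjusted p = 0.116), and in a fit of these 2 groups only it was -1.50 (0.512). Ezh2 -/- libraries without JAK2V617F held 30.1, 23.5, 10.8 and 16.1 CPM, all below every control, as in 1.39% of all genes, yet with terms for batch and sex the log2 value was -0.39 ± 0.48 (edgeR adjusted p = 1).

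**Figure D4:**
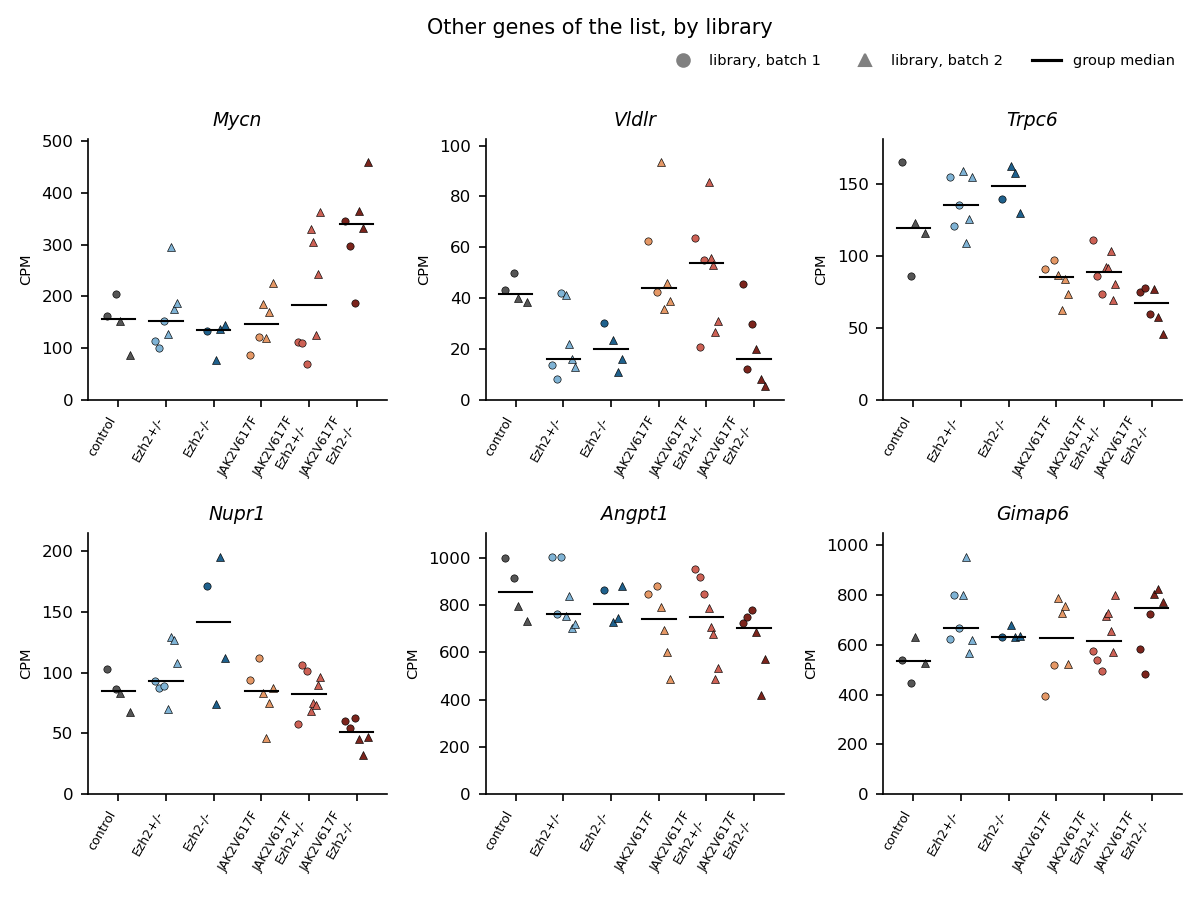
Levels (CPM, linear axis from 0) of 6 genes that did not pass between JAK2V617F and control cells, with 1 point per library (circles batch 1, triangles batch 2) and bars for group medians. Mycn has its highest median in JAK2V617F Ezh2 -/- libraries (187 to 460 CPM), which overlap JAK2V617F Ezh2 +/- libraries (68.3 to 363 CPM). Trpc6 and Nupr1 have their lowest medians in JAK2V617F Ezh2 -/- libraries (67.5 and 50.9 CPM).

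The other 10 lost genes did not pass as higher without Ezh2. Runx1t1 had a log2 value of 0.47 ± 0.34 and Sult1a1 of 0.73 ± 0.37, which is 16.5 and 26.1% of their falls. Both leaned on single libraries: Sult1a1 had 0.29 ± 0.32 without JAK2V617F Ezh2 -/- batch 2 replicate 3, and Runx1t1 0.19 ± 0.30 without JAK2V617F batch 1 replicate 1 and 0.84 ± 0.37 without replicate 2 of that batch. Mllt3 and Pdzk1ip1 had 0.13 ± 0.14 and 0.07 ± 0.12, or 10.003 and 9.8% of the fall. Mecom and Txnip had 51.5 and 39.7% (0.32 ± 0.15 and 0.48 ± 0.25), and Mecom ranged from 0.19 to 0.50 without the one or the other of these JAK2V617F libraries. Gata3 had 23.2% (0.15 ± 0.14). Clec1a, Hlf and Lmo2 had negative values, at -0.66 ± 0.23, -0.30 ± 0.16 and -0.04 ± 0.11. In the second stem cell list 5 genes were higher and 0 lower, namely Ndn (0.97 ± 0.13, edgeR adjusted p = 3e-05), Ramp2, Ifitm1, Ifitm3 and Socs2. Slc22a3 had -1.59 ± 0.44 with 5 of 6 libraries below every JAK2V617F library (edgeR adjusted p = 0.131), and DESeq2 and limma-voom called it. Of the 40 proliferation genes 0 passed in either direction by edgeR, with a summed level of 3153 to 6191 CPM in JAK2V617F Ezh2 -/- libraries.

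Against controls, JAK2V617F Ezh2 -/- cells held less RNA of 14 of the 39 genes and more of none by edgeR, where 2.34% of all genes were lower and 3.14% higher. Of the lost genes, Runx1t1, Sult1a1, Mllt3, Clec1a, Pdzk1ip1, Hlf, Gata3 and Lmo2 passed here, with log2 changes from -2.39 ± 0.35 (Runx1t1) to -0.50 ± 0.14 (Gata3). Txnip (-0.73 ± 0.26, edgeR adjusted p = 0.0909), Ltb and Mecom (-0.30 ± 0.16, 0.296) did not. In addition Eya1, Prdm16, Trpc6, Erg, Adgrg1 and Nupr1 were lower. The median log2 change was -0.50, beside -0.01 for all genes. In 10 of the 39 genes every double mutant library lay below every control, against 2.63% of all genes. Mycn had 1.01 ± 0.33 with 5 of 6 libraries above every control (edgeR adjusted p = 0.0721), and it passed as higher by DESeq2, by limma-voom and in a fit of these 2 groups only. DESeq2 and limma-voom each called 18 of the 39 genes, adding Angpt1, Mycn and Slc22a3 in both, with Txnip in the former and Vldlr in the latter.

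Other markers moved in the same comparison. Of 40 proliferation genes, 31 were higher and 0 lower (median log2 change 1.62). Of 13 erythroid markers, 2 were higher and 3 lower, and the beta-globin gene Hbb-bt had 2.96 ± 0.50 (edgeR adjusted p = 0.000357). The alpha-globin gene Hba-a1 went the other way (-8.34 ± 1.66, edgeR adjusted p = 0.00246). It was at 2.26 to 72.8 CPM in controls and at most 0.292 CPM in the double mutant. The part of these markers in the falls of the stem cell genes was not tested.

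Clec1a was lowest in the double mutant, at 29.1 to 64.5 CPM (median 39.7), a log2 change of -1.63 ± 0.24 against control (edgeR adjusted p = 4.64e-05). Trpc6, a calcium-permeable cation channel gene, was at 166, 86.1, 123 and 116 CPM in controls, 62.8 to 97.1 CPM (median 85.2) with JAK2V617F and 45.4 to 78.0 CPM (median 67.5) in the double mutant. All 6 double mutant libraries lay below every control (log2 change -0.88 ± 0.15, edgeR adjusted p = 0.000356). Eya1, a phosphatase and transcriptional coactivator gene, went from 62.3, 50.6, 89.6 and 57.0 CPM to 17.96 to 47.3 CPM (median 35.3), without overlap (-0.93 ± 0.22, edgeR adjusted p = 0.00827).

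Erg (Entrez 13876), an ETS factor that stem cells need, depended on batch in controls: 91.2 and 55.4 CPM (batch 1), 181 and 140 CPM (batch 2). The double mutant held 41.9 to 69.6 CPM (median 58.4) and 1 of 6 libraries lay below every control (log2 change -0.84 ± 0.20, edgeR adjusted p = 0.00984). Prdm16 was at 110, 135, 75.6 and 70.9 CPM in controls and 53.3 to 71.4 CPM (median 64.6) in the double mutant (-0.58 ± 0.15, edgeR adjusted p = 0.0177). Adgrg1 was at 5279, 4612, 4993 and 4653 CPM in controls and at 3553 to 4019 CPM (median 3810) in the double mutant, lower in 6 of 6 libraries (-0.37 ± 0.11, edgeR adjusted p = 0.0324). Nupr1 was at 32.5 to 62.6 CPM (median 50.9) in the double mutant, below every control in 6 of 6 (-0.78 ± 0.21, edgeR adjusted p = 0.0261).

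Some of these calls rested on single libraries. The call of Erg ended without control batch 1 replicate 1 or batch 2 replicate 2, that of Eya1 without control batch 2 replicate 2, and that of Nupr1 without either of these controls or JAK2V617F Ezh2 -/- batch 2 replicate 2 (highest edgeR adjusted p = 0.0595, 0.0623 and 0.104). That of Prdm16 ended without control batch 1 replicate 1 or 2, or JAK2V617F Ezh2 -/- batch 1 replicate 1 (0.104). Gata3 failed without any 1 of 7 of the 10 libraries, all except control batch 2 replicate 4 and JAK2V617F Ezh2 -/- batch 2 replicates 2 and 3 (highest edgeR adjusted p = 0.123). Adgrg1 failed without any 1 of 6, all except control batch 1 replicate 2 and JAK2V617F Ezh2 -/- batch 1 replicate 2 and batch 2 replicates 1 and 2 (0.115).

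The effect of JAK2V617F was measured a second time in cells without Ezh2, where JAK2V617F Ezh2 -/- and Ezh2 -/- libraries share no library with the comparison of JAK2V617F and control. Both comparisons come from 1 fit and share its spread estimate and its terms for batch and sex. Ezh2 -/- held 1 female and 3 males, and JAK2V617F Ezh2 -/- held 5 females and 1 male. Counts of genes whose libraries do not overlap are not adjusted for sex. Between these 2 groups 14 of the 39 genes were lower and 1 higher, against 1.97 and 2.86% of all genes. All 11 lost genes had negative values, as did 247 of the 273 genes lower with JAK2V617F among all tested (90.5%). Of the 11 lost genes, 7 passed: Runx1t1, Sult1a1, Mllt3, Clec1a, Pdzk1ip1, Hlf and Lmo2. These 7 are 63.6% of the 11 lost genes and 50% of the 14, whereas 82 genes in all were lower in both comparisons, 30.04% of 273 and 27.8% of 295. In 12 of the 39 genes all double mutant libraries lay below every Ezh2 -/- library, against 2.96% of all genes. In the same comparison 29 of 40 proliferation genes were higher and 0 lower (median log2 change 1.56). All 11 granulocyte and monocyte markers had positive values (median 1.497), with 1 called, and their summed level was 1091 to 2984 CPM in Ezh2 -/- and 455 to 5797 CPM in double mutant libraries. The part of these markers in the result was not tested.

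Mllt3 was at 421, 450, 374 and 448 CPM in Ezh2 -/- libraries and at 151 to 210 CPM (median 187) in the double mutant (log2 change -1.19 ± 0.15, edgeR adjusted p = 5.25e-06). Trpc6 was at 140, 163, 158 and 130 CPM in Ezh2 -/- libraries, well above the double mutant (-1.30 ± 0.16, edgeR adjusted p = 2.92e-06, the smallest of the 39). Nupr1 was at 171, 73.9, 195 and 112 CPM in Ezh2 -/- libraries, above every double mutant library (-1.43 ± 0.24, edgeR adjusted p = 0.000199). Mycn was the gene that was higher, in 6 of 6 libraries, as 3.87% of all genes were (1.71 ± 0.37, edgeR adjusted p = 0.00469), and lost its call without Ezh2 -/- batch 2 replicate 1 (0.0508).

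Angpt1, Tie1, Adgrg1, Prdm16 and Zfp521, a zinc finger cofactor gene, were lower in this comparison as well. Angpt1 was at 863, 729, 745 and 880 CPM in Ezh2 -/- libraries and at 418 to 781 CPM (median 704) in the double mutant, with 4 of 6 libraries below (-0.51 ± 0.13, edgeR adjusted p = 0.0163). Tie1 was at 160, 282, 254 and 320 CPM and at 125 to 183 CPM (median 160), with 3 of 6 below (-0.59 ± 0.18, edgeR adjusted p = 0.0456). Zfp521 was at 26.3, 53.8, 49.9 and 43.4 CPM and at 16.8 to 32.99 CPM (median 24.2), with 4 of 6 below (-1.02 ± 0.30, edgeR adjusted p = 0.0398). Angpt1 lost its call without Ezh2 -/- batch 2 replicate 3 or JAK2V617F Ezh2 -/- batch 2 replicate 2, with a highest edgeR adjusted p of 0.0859. Tie1 failed without any 1 of 8 of the 10 libraries, all except Ezh2 -/- batch 1 replicate 1 and JAK2V617F Ezh2 -/- batch 1 replicate 2 (0.177). Zfp521 failed without any 1 of 7, all except Ezh2 -/- batch 1 replicate 1 and JAK2V617F Ezh2 -/- batch 1 replicate 3 and batch 2 replicate 1 (0.197). Adgrg1 lost its call without any 1 Ezh2 -/- library of batch 2 (0.0635), Sult1a1 without Ezh2 -/- batch 2 replicate 1 (0.0705), and Prdm16 without that library or JAK2V617F Ezh2 -/- batch 2 replicate 2 (0.262).

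Loss of Ezh2 without JAK2V617F changed none of the 39 genes past the threshold (edgeR 0, DESeq2 0, limma-voom 0), where 0.00669% of all genes were lower and 0% higher. At an unadjusted p under 0.05 there were 3, namely Abcg2 (log2 value 0.32 ± 0.12), Nupr1 (0.65 ± 0.26) and Trpc6 (0.42 ± 0.18), all positive, where 5.96% of all genes had such a p. Pdzk1ip1 lay above every control in all 4 Ezh2 -/- libraries, as 1.43% of all genes did, with a log2 value of 0.22 ± 0.15. The median of the 39 values was 0.10, beside -0.01 for all genes, and 28 of 39 were positive. Loss of 1 Ezh2 allele gave 0 calls without JAK2V617F (3 at an unadjusted p under 0.05, Abcg2, Neo1 and Gimap6, against 5.17% of all genes) and 0 with it (5, Ltb, Mllt3, Robo4, Erg and Myct1, against 3.87% of all genes), where 0% of all genes passed by edgeR, and DESeq2 and limma-voom also called 0 of the 39. Neo1 was above every control in 7 of 7 Ezh2 +/- libraries (1.26 ± 0.52), which held for 0.161% of all genes.

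Whether Ezh2 loss acted differently with JAK2V617F than without was tested as a difference of the 2 effects. None of the 39 genes passed by edgeR (lowest adjusted p = 0.26) or limma-voom, and 0.00669% of all genes were higher by this edgeR test. An unadjusted p under 0.05 was found for 10 of the 39 genes, a larger share than the 5.41% of all genes. Mycn had a difference of 2.08 ± 0.54 log2 units and Nupr1 of -1.34 ± 0.35, and DESeq2 called these 2. Trpc6 had -0.85 ± 0.25 (edgeR adjusted p = 0.408) and Ltb 0.70 ± 0.31 (0.877). The restored call of Ltb is thus not shown to be limited to cells with JAK2V617F.

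Over the whole list, the mean of log2(CPM + 1) separated libraries by JAK2V617F and not by Ezh2. It was 6.74 to 7.01 in controls (median 6.93), 6.86 to 7.18 in Ezh2 +/- (6.96) and 6.81 to 7.09 in Ezh2 -/- libraries (7.01). With JAK2V617F it was 6.19 to 6.62 with intact Ezh2 (6.39), 6.34 to 6.68 with Ezh2 +/- (6.49) and 6.22 to 6.51 with Ezh2 -/- (6.38). No library with JAK2V617F reached the lowest library without it. This mean includes the 11 genes called lower in the same JAK2V617F and control libraries, so it describes the list and is no separate support. It was not adjusted for batch or sex.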

How the data were processed

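RNA-seq libraries of 1000 sorted mouse LT-HSCs each were compared in 6 genotype groups, with group, batch, sex and replicate number taken from the labels. Per the labels' protocols, a low-input RNA kit (PicoPure) and SMARTer amplification preceded library preparation. The deposited values are raw counts per Entrez gene with a gene length in bases. STAR and the build mm9 are named per the submitters' processing notes. The counting tool, annotation, strand setting and versions were not given in the sources used here. Reads of overlapping or antisense genes may therefore be mixed. Symbols matched 19075 of 19138 genes, through a reference of another build that was used for names and promoters only. A part of Ezh2 with a length of 178 bases, counted separately, took at most 0.000935% of a library and stayed out of library sizes and tests.

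All 35 libraries entered 1 quasi-likelihood fit of edgeR 4.0.16 (R 4.3.3, robust spread estimation) with terms for group, batch and sex, TMM factors of 0.937 to 1.062 and 27 residual degrees of freedom. The filter on low counts left 14945 genes and removed 4193, and calls used a Benjamini-Hochberg adjusted p under 0.05 over all genes tested. An SE was taken as |log2 change| over the root of its F statistic. CPM and FPKM were computed from the counts, TMM-normalised totals and the deposited lengths, and levels of different genes were compared only per length. In simulated counts (14706 genes, JAK2V617F against control) 55% of 2-fold and 91% of 4-fold changes were recovered with 8 false calls. No pair of libraries of a group was alike within sampling noise (91 pairs checked).

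The members and lists were chosen with earlier results of these data known. Every member may be named, with Ezh2, Jak2, and up to 4 genes of each other list with the smallest adjusted p in the 2 main comparisons. Values by library are given for lost members, members called in any comparison and the 3 values closest to 0. Genes named outside this rule (Kit, Slamf1, Cd48, Cdh5, Plvap, Esam, Egfl7, Pecam1, Pax5, Rag1, Xist, Procr and Cd34) mark cells or check labels, and were picked with their values in view. Alternatives were size factors and the Wald test of DESeq2 1.42.0, limma-voom (limma 3.58.1), no filter, no sex term, the replicate number as a block, the compared groups only, each batch, females alone, no doubted libraries, each library left out, and, added after seeing the data, no robust estimation.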

Additional observations from a re-analysis of the deposited data

Results flagged for a closer look

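Among 144 groups of 4 to 8 libraries checked (24 genes by 6 genotypes), 6 held a library with a wide gap to the next. The gap was judged relative to the range of the group, so it can be small in CPM. Chance alone flags about 1 in 20, and the 6 are no more than that rate gives. Erg was at 107.6 CPM in JAK2V617F Ezh2 +/- batch 2 replicate 1, with the next library at 73.8 CPM. Gimap6 was at 680.7 CPM in Ezh2 -/- batch 2 replicate 1, with the next at 634.1 CPM. Mecom was at 228.5 CPM in JAK2V617F Ezh2 -/- batch 1 replicate 1, with the next at 176.4 CPM. Mycn was low, at 76.9 CPM, in Ezh2 -/- batch 2 replicate 1, where the next library held 132.8 CPM. Sult1a1 was at 142.5 CPM in JAK2V617F Ezh2 -/- batch 2 replicate 3, with the next at 62.0 CPM. Zfp521 was at 96.4 CPM in the library labelled Ezh2 +/- batch 1 replicate 1, which also went against its sex label, with the next at 53.3 CPM.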

How the results depend on the processing

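The 11 genes lower with JAK2V617F kept a negative value under every alternative tried. Their count was 3 in batch 1 alone, 3 in batch 2 alone and 5 in females alone, where fewer libraries entered, and 7 to 12 without 1 library at a time. Between JAK2V617F Ezh2 -/- and JAK2V617F cells the count of 3 became 1 in a fit of these groups only, 0 in batch 1 alone, 1 in batch 2 alone and 0 in females alone, and was 2 to 3 without 1 library at a time. For the double mutant against control the count of 14 became 5 in each batch alone and 9 to 14 without 1 library. Against Ezh2 -/- the count of 15 became 0 in batch 1 alone and 5 in females alone, where Ezh2 -/- has 1 library each, assumed to vary like the other groups, so that these values say little on stability. It was 9 to 18 without 1 library. The count of 0 stayed at 0 to 0 without 1 library for Ezh2 -/- against control, for both losses of 1 allele and for the difference of the Ezh2 effects, for which DESeq2 called 2. No gene called in the main fit changed its sign under any alternative.

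Replicate numbers did not pair the libraries: deviations of 69 same-number pairs within a batch had a mean correlation of -0.04, with 0 pairs over 0.1. With the replicate number as a block, 12 listed genes were lower with JAK2V617F (10 of the 11, without Mecom), 2 passed between JAK2V617F Ezh2 -/- and JAK2V617F (without Mycn), 17 against control and 12 against Ezh2 -/-. Without the 2 doubted libraries the counts were 11, 3, 15 and 17. Without robust estimation they were 11, 3, 14 and 14.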
